A study of Mus musculus with 9 samples.

Results

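The genes described here encode proteins of the mitochondrial ribosome. They were taken by symbol, as Mrpl or Mrps followed by a number and at most 1 letter from a to c, which gave 76 of the 23337 genes in the table. All 76 passed the low-count filter that left 13141 genes for testing, and none was set aside. They lie on 17 chromosomes. By their known place in the ribosome, 49 belong to the large subunit and 26 to the small subunit. The remaining one, Mrps36, carries the name of a small-subunit protein but is known as a part of the oxoglutarate dehydrogenase complex of the citric acid cycle.

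Livers came from C57BL/6 mice that were 6 to 8 weeks old when a high-fat diet of 16 weeks began, so all 3 groups share the diet, and a group on normal chow is not analysed here. The 3 WT mice carried the floxed allele of the gene for protease-activated receptor 2 (PAR2fl/fl), the 3 dHep mice lacked the receptor in hepatocytes (PAR2dHep), and the 3 mice of the KO group carried the label PAR2 KO, a loss in the whole body. The labels name neither the Cre driver of dHep nor the allele of KO. Poly(A) RNA of each liver was sequenced as 1 stranded library with 18683660 to 30509242 reads assigned to genes, and a member had 94 to 2617 reads in a library. Each library is labelled as 1 mouse, so the spread between libraries is that between mice, with any cage or preparation effects the labels leave unnamed.

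Mitochondria keep a small genome of their own, and the mitochondrial ribosome translates its messages into core subunits of the respiratory chain and ATP synthase. All proteins of that ribosome are encoded in the nucleus, made in the cytosol and imported, so their supply is set outside the organelle and has to match the rRNA made within it. Many have a homolog in bacterial ribosomes, while others are found only in mitochondria. The nuclear respiratory factors NRF1 and GABPA and the factor YY1 are known to act at promoters of many genes for mitochondrial proteins. Liver is rich in mitochondria and oxidises fatty acids in them.

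The short stretches of sequence that those factors are known to recognise were looked for in a window of 250 bases before to 50 bases after each annotated start, in RefSeq sequence of GRCm38.p6, on both strands and as exact letters. A window was found for 67 of the 76 members. Shares are of genes with a window, and a gene with several windows counted if any of them held the letters. The letters of NRF1 (GCGC, any base, then TGCGC) were found in 12 members (17.9%), against 10.9% of 9453 tested genes and 5.19% of all 27025 genes. Those of GABPA (CCGGAAG) were in 24 (35.8%), against 18.8% and 9.93%. Those of YY1 (AAGATGGC) were in 12 (17.9%), against 4.92% and 3.19%. At least 1 of the 3 was in 41 members (61.2%), against 30.4% and 16.4%. In contrast the letters of SP1 (GGGCGG) were in 33 (49.3%), against 66.4% and 38.2%, and TATAAA was in 5 (7.46%), against 9.62% and 15.7%. The windows can overlap those of a neighbouring gene, and a match is only a run of letters. Below stand stretches before the start of 4 members that rose in both comparisons with WT and hold such letters there, and the gap between a pair of members that face away from each other. Capitals mark the NRF1 letters in Mrpl12 and the GABPA letters, in either direction, in Mrpl18, Mrpl52 and Mrpl43, which holds them more than once. Each run reads in the direction of its gene (+ strand for Mrpl12, Mrpl52 and Mrps11, - strand for Mrpl18 and Mrpl43).
Mrpl12, chr11:120484387-120484636: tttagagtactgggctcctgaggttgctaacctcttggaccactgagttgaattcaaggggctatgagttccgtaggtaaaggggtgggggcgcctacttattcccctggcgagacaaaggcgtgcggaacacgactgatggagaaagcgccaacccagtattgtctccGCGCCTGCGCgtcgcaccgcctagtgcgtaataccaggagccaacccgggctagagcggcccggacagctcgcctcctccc
Mrpl18, chr17:12916092-12916341: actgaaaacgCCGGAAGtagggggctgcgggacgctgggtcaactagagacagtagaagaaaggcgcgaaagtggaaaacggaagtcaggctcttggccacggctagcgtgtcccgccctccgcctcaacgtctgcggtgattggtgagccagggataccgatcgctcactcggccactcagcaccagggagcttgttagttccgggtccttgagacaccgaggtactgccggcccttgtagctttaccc
Mrpl52, chr14:54426659-54426908: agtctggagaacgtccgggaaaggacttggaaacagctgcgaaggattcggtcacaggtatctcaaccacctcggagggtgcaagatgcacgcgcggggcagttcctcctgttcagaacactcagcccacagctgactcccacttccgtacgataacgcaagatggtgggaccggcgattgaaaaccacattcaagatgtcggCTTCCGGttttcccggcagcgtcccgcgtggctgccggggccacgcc
Mrpl43, chr19:45006443-45006557: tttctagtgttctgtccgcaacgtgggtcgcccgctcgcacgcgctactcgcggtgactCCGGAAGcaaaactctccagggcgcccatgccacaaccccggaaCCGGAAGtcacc
Mrps11 and Mrpl46, chr7:78783090-78783130: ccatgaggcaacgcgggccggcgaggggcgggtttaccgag

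Before the results, 3 measurements on the libraries bear on them. F2rl1, the gene of the receptor, gave 17, 27 and 28 reads in WT livers, 2, 8 and 0 in dHep livers, and 71, 103 and 76 in livers labelled KO. It was lower in dHep than in WT (log2 fold change -2.73 ± 0.66 SE, edgeR adjusted p = 0.0164, a call that ended without WT 2, WT 3 or dHep 1) and higher in the libraries labelled KO (2.22 ± 0.51, edgeR adjusted p = 0.0073). The table counts the gene as a whole, so reads outside a deleted part could not be set aside, and the group is called by its label throughout. Summed CPM (counts per 1000000 reads) of 12 pancreatic markers was 468 in WT 1 and 1805 in dHep 2, against 12.5 to 84.8 in the other libraries. That of 10 skeletal muscle markers was 716 in dHep 2 against 64.1 or less elsewhere. Counts below are therefore also given without these libraries. Hepatocyte markers had the highest sum of all marker lists in each library.

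The WT livers held the lowest summed level of the 76 genes. The sum was 1757, 1798 and 1776 CPM for WT, 2225, 2030 and 2671 for dHep, and 2289, 2653 and 2481 for the livers labelled KO. Every dHep library and every library labelled KO lay above every WT library, and dHep spread most (SD 329 CPM, against 20.5 in WT and 182 in KO, n = 3 each). The mean was 1.30 times that of WT in dHep and 1.39 times in KO. These CPM values use library sizes scaled by TMM, a factor that lines up the bulk of genes between libraries. With library totals alone the sums were 1911, 1926 and 1949 in WT, 2434, 1894 and 2358 in dHep, and 2191, 2596 and 2301 in KO, and dHep 2 then lay below every WT library. The summed level of small-subunit genes divided by that of large-subunit genes was 0.408 ± 0.003 in WT, 0.406 ± 0.002 in dHep and 0.417 ± 0.004 in KO (SD, n = 3).

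**Figure D1:**
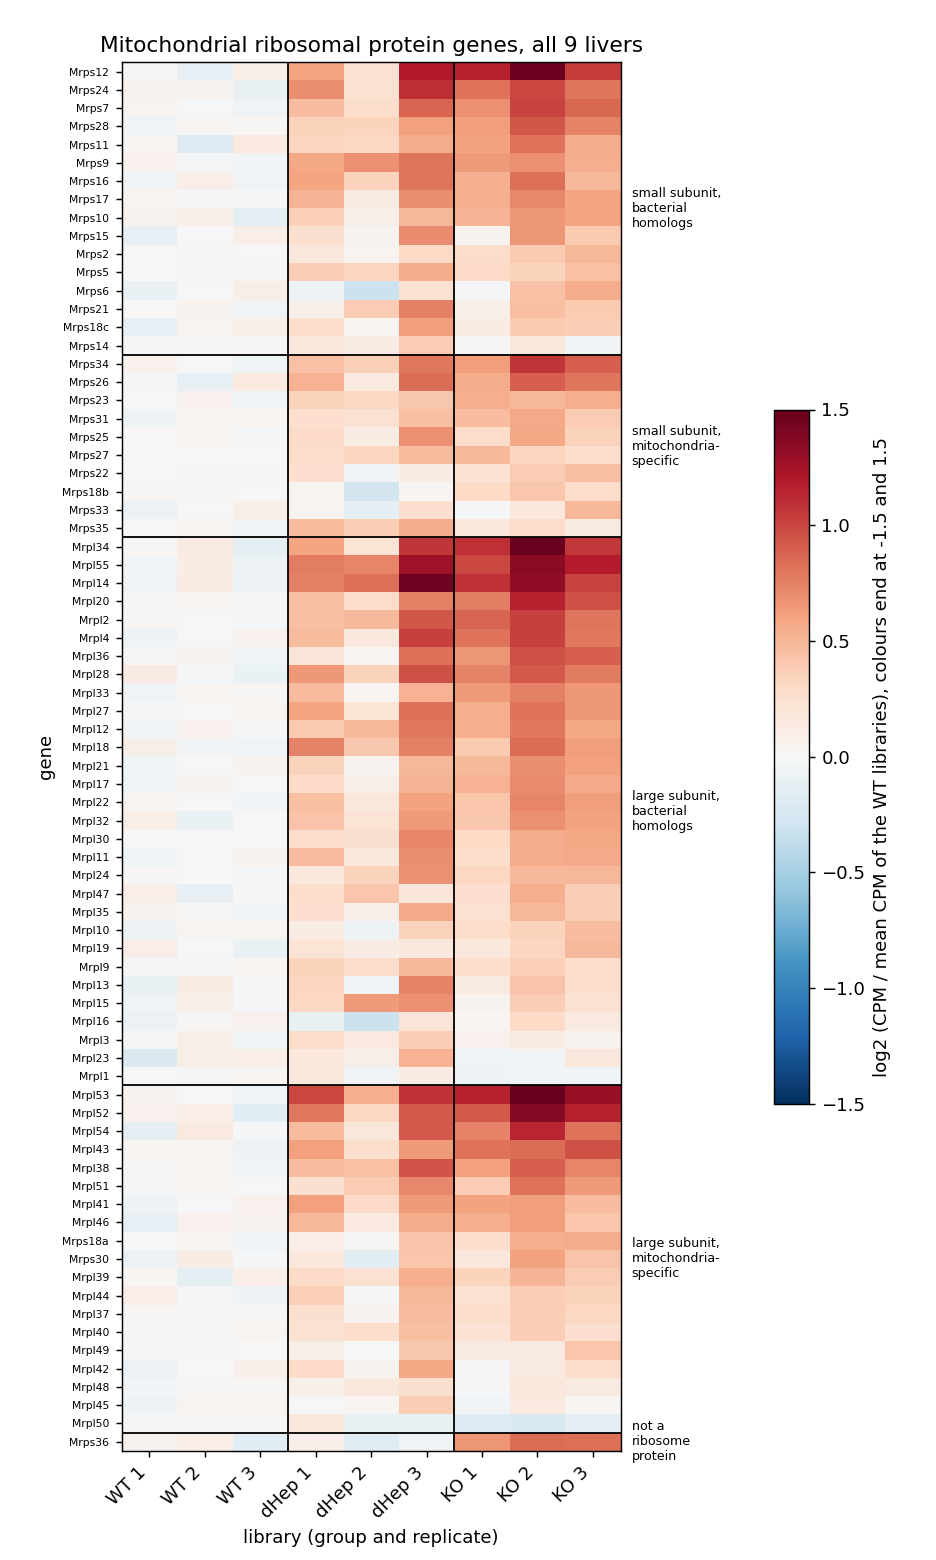
Level of each of the 76 genes in the 9 livers as log2 of its CPM over the mean CPM of the WT libraries; lines divide the groups of libraries and the classes of protein, and genes are ordered within a class by the change in the libraries labelled KO. Of the 76 genes, 71, 54 and 74 lay above all 3 WT libraries in dHep 1, 2 and 3, and 63, 73 and 71 in KO 1, 2 and 3.

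The first comparison asked what loss of the receptor in hepatocytes goes with. In dHep, 34 of 76 genes rose against WT and 0 fell, at an edgeR p adjusted over all tested genes under 0.05. Of all tested genes, 12.4% rose and 11.9% fell, 24.3% in either direction. The median log2 fold change of the 76 genes was 0.38, against 0.02 for all tested genes, and the values ran from -0.07 (Mrpl16) to 1.05 (Mrpl14). At an unadjusted p under 0.05, 53 genes were higher and 0 lower, and DESeq2 called 41 higher and 0 lower. Of the 13089 genes tested by DESeq2, 1964 were called higher and 1770 lower. The dHep libraries all lay above the WT libraries for 54 genes, against 20.8% of tested genes, and all below for 0, against 22.6%. Without WT 1 and dHep 2 the test called 33 genes, where 10.6% of all tested genes rose. The count of members moved with single livers, to 55 without dHep 2, 17 without dHep 3, and 12, 10 and 7 without WT 1, 2 and 3, while the median stayed between 0.28 and 0.48. Among all tested genes, 15.5% rose without dHep 2 and 9.98% without dHep 3. Leaving out 1 WT library gave 4.55% to 6.69%.

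The second comparison asked the same for the libraries labelled KO, against the same 3 WT libraries, so both comparisons share that reference. In these libraries 52 of 76 genes rose and 0 fell, where 20.9% of tested genes rose and 22.1% fell, 43% in either direction. The median log2 fold change was 0.48, against -0.01 for all tested genes, with a range from -0.19 (Mrpl50) to 1.37 (Mrpl53). At an unadjusted p under 0.05, 58 genes were higher and 0 lower. DESeq2 called 54 higher and 0 lower, and limma voom with sample weights 67 higher and 1 lower. Of all genes, DESeq2 called 22.3% higher and voom 30.4%, where the main test called 20.9%. They called 3002 and 4203 genes lower. The libraries labelled KO lay wholly above WT for 63 genes (32.4% of tested genes did so) and wholly below for 2, Mrpl1 and Mrpl50 (33.8%). Without WT 1 and dHep 2 the test called 49 genes, and leaving out any 1 library left 39 to 58. The share of all tested genes that rose was 18.4% without that pair. It was 13.9% without WT 2, where 39 members were called, and 23.7% without dHep 2, where 58 were.

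The third comparison set the libraries labelled KO against dHep. Here 1 member rose, Mrps36, and 0 fell, where 4.23% of tested genes rose and 5.39% fell, 9.62% in either direction. At an unadjusted p under 0.05, 13 members were higher and 2 lower, and DESeq2 called 3 higher and 0 lower. The median was 0.14, against -0.02 for all tested genes. Groups did not overlap for 11 members that were higher and 3 that were lower, against 13.9% and 12.7% of tested genes. Without WT 1 and dHep 2 the test called 0 members. Without dHep 3, the dHep library with the highest level, it called 18, and without dHep 1 it called 3. The share of all tested genes that rose was 9.78% without dHep 3 and 4.56% without dHep 1.

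Among proteins of the small subunit, 12 of 26 rose in dHep, and 18 rose in the livers labelled KO. Mrps9, a homolog of a bacterial protein in the head of the small subunit, had the smallest p of all members in dHep. Its level was 14.7, 13.9 and 13.7 CPM in WT, 21.1, 22.7 and 24.6 in dHep, and 22.0, 22.7 and 20.6 in KO. All 6 libraries of the altered genotypes were above all 3 WT libraries, and dHep and KO overlapped. The log2 fold change was 0.69 ± 0.10 in dHep (edgeR adjusted p = 0.0024) and 0.63 ± 0.10 in KO (edgeR adjusted p = 0.0016), and both calls held under all 19 alternatives tried. Mrps12 encodes the homolog of the bacterial protein at the decoding centre that streptomycin resistance mutations alter. It had 7.33, 6.63 and 7.70 CPM in WT, 10.9, 8.43 and 16.6 in dHep, and 16.2, 20.03 and 14.8 in KO. The dHep libraries were above WT but differed among themselves, with dHep 3 at the level of KO. The change was 0.73 ± 0.23 in dHep, a call that ended under 14 of 19 alternatives (edgeR adjusted p = 0.0461, range over all alternatives 0.0097 to 0.215), and 1.24 ± 0.23 in KO (edgeR adjusted p = 0.0028), which held under all 19.

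Mrps28, a small-subunit protein classed with the bacterial homologs, had 10.6, 11.3 and 11.2 CPM in WT, 14, 13.9 and 17.0 in dHep, and 17.1, 21.2 and 18.5 in KO. The 3 groups did not overlap, with WT lowest and KO highest. Its log2 fold change was 0.43 ± 0.12 in dHep (edgeR adjusted p = 0.032, lost under 10 of 19 alternatives) and 0.77 ± 0.12 in KO (edgeR adjusted p = 0.0014). Mrps35, a protein that bacteria lack, went another way. It had 19.6, 20.04 and 19.0 CPM in WT, 27.3, 25.3 and 28.8 in dHep, and 21.8, 23.6 and 21.5 in KO. It rose in dHep by 0.47 ± 0.10 (edgeR adjusted p = 0.0092), but with library totals alone, and when a trend with gene length was removed, the call ended. In KO its value was 0.19 ± 0.10 (edgeR adjusted p = 0.142), and KO against dHep gave -0.28 ± 0.10 (edgeR adjusted p = 0.10).

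Among proteins of the large subunit, 22 of 49 rose in dHep, and 33 rose in the livers labelled KO. Mrpl53, found only in mitochondria, changed most in KO. It had 10.8, 10.3 and 9.98 CPM in WT, 20.7, 15.1 and 22.0 in dHep, and 23.0, 31.9 and 25.6 in KO, so that the 3 groups followed each other without overlap. The log2 fold change was 0.90 ± 0.17 in dHep (edgeR adjusted p = 0.0060) and 1.37 ± 0.17 in KO (edgeR adjusted p = 0.00049). Between KO and dHep it was 0.48 ± 0.17 and did not pass (edgeR adjusted p = 0.0987).

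Mrpl34, with a bacterial homolog, came next by size in KO among proteins of the large subunit. It had 8.04, 8.63 and 7.17 CPM in WT, 11.9, 9.2 and 16.7 in dHep, and 17.0, 22.2 and 16.6 in KO, so that dHep 3 reached the level of KO. It rose by 0.66 ± 0.21 in dHep (edgeR adjusted p = 0.0478), a call lost under 14 of 19 alternatives, among them leaving out each library but dHep 2, and by 1.23 ± 0.21 in KO (edgeR adjusted p = 0.0020), which held under all 19. Mrpl55 and Mrpl14 also have bacterial homologs. Mrpl55 had 7.93, 8.78 and 7.77 CPM in WT, 13.9, 13.6 and 19.6 in dHep, and 16.3, 20.8 and 18.5 in KO. Mrpl14, a protein on the face that meets the small subunit, had 18.1, 20.5 and 17.7 CPM in WT, 31.7, 33.2 and 51.5 in dHep, and 40.1, 47.3 and 37.9 in KO. In both genes every dHep and KO library was above every WT library, and dHep and KO overlapped. Mrpl55 rose by 0.94 ± 0.16 in dHep (edgeR adjusted p = 0.0045) and 1.18 ± 0.16 in KO (edgeR adjusted p = 0.00077). Mrpl14 rose by 1.05 ± 0.19 (edgeR adjusted p = 0.0051) and 1.15 ± 0.19 (edgeR adjusted p = 0.0015). All calls of Mrpl53, Mrpl55 and Mrpl14 against WT held under the 19 alternatives.

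Mrpl12 forms the stalk of the large subunit, where translation factors dock, and is also known to bind the mitochondrial RNA polymerase. Its promoter stretch above carries the NRF1 letters. It had 54.5, 58.7 and 55.0 CPM in WT, 73.8, 78.8 and 96.9 in dHep, and 81.7, 97.1 and 83.9 in KO. No dHep or KO library reached down to WT. The rise was 0.57 ± 0.12 in dHep (edgeR adjusted p = 0.0091) and 0.64 ± 0.12 in KO (edgeR adjusted p = 0.0026), and both held under the 19 alternatives. Mrpl18, with the GABPA letters far from its start, had 33.5, 30.9 and 30.5 CPM in WT, 52.9, 41.9 and 53.6 in dHep, and 41.7, 56.3 and 48.8 in KO. It rose by 0.64 ± 0.14 (edgeR adjusted p = 0.0097) and 0.63 ± 0.14 (edgeR adjusted p = 0.0057). Both calls of Mrpl18 ended with library totals alone, and that in KO also with the length trend removed.

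Mrpl52 and Mrpl43, the other genes with GABPA letters printed above, encode proteins that bacteria lack. Mrpl52 had 7.63, 7.82 and 6.49 CPM in WT, 12.6, 9.04 and 13.8 in dHep, and 13.8, 18.8 and 16.2 in KO. Mrpl43 had 15.3, 15.4 and 14.3 CPM in WT, 23.1, 18.0 and 23.4 in dHep, and 26.5, 27.0 and 29.2 in KO. Both were lowest in WT without overlap, and Mrpl43 was higher in every KO library than in any dHep library. In KO they rose by 1.15 ± 0.18 and 0.87 ± 0.12 (edgeR adjusted p = 0.0013 and 0.00082), calls that held under the 19 alternatives. In dHep they rose by 0.69 ± 0.18 and 0.52 ± 0.12 (edgeR adjusted p = 0.0227 and 0.0154), calls lost under 7 and 4 alternatives. Mrpl2 and Mrpl20, with bacterial homologs, rose by 0.64 and 0.51 in dHep (edgeR adjusted p = 0.011 and 0.0298) and by 0.90 and 0.97 in KO (edgeR adjusted p = 0.0012 and 0.00096). Single livers decided several dHep calls. Leaving out WT 1, WT 2 or WT 3, each alone, ended those of Mrps12, Mrps28, Mrpl20 and Mrpl52, WT 2 or WT 3 that of Mrpl43, and WT 3 those of Mrpl18 and Mrpl2. Leaving out dHep 3 ended those of Mrps12, Mrps28, Mrpl20 and Mrpl52, dHep 1 those of Mrps12 and Mrpl52, KO 3 those of Mrps12, Mrps28 and Mrpl20, and KO 1 or KO 2 that of Mrps12.

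**Figure D2:**
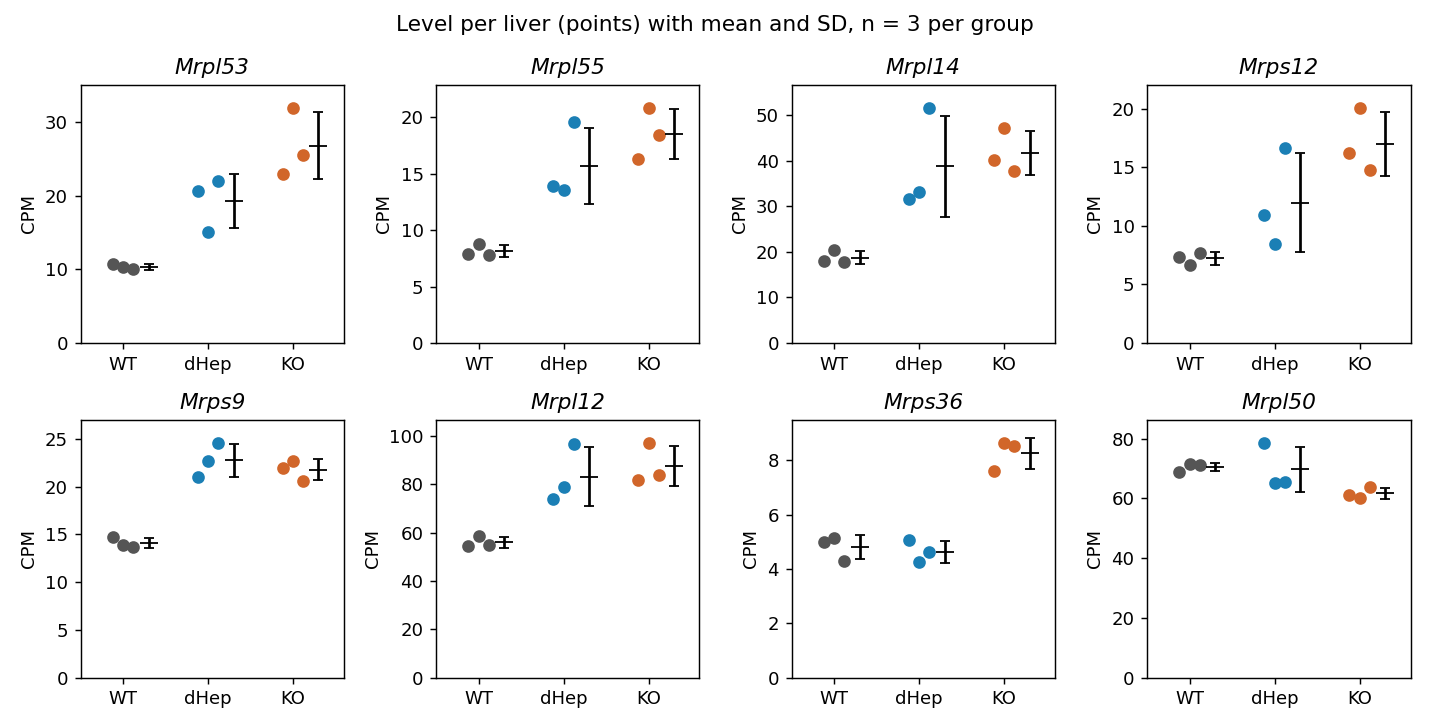
Level in CPM of 8 genes in each liver (points), with the mean and SD of the 3 livers of a group beside them. Mrpl53, Mrpl55, Mrpl14, Mrps12, Mrps9 and Mrpl12 are above WT in every dHep and KO liver, Mrps36 is high in the KO livers (7.61 to 8.64) and not in dHep (4.26 to 5.07), and Mrpl50 is lower in every KO liver than in any WT liver.

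Some members did not pass the test in either comparison. Mrpl50, a mitochondria-specific protein, had 68.9, 71.4 and 71.2 CPM in WT, 78.5, 65.3 and 65.4 in dHep, and 61.2, 60.1 and 63.7 in KO. Its value was -0.02 ± 0.09 in dHep and -0.19 ± 0.09 in KO, neither of which passed (edgeR adjusted p = 0.921 and 0.12). Mrpl1 had 39.5, 38.5 and 40.4 CPM in WT and 37.3, 38.4 and 37.9 in KO, a difference of -0.06 ± 0.09 (edgeR adjusted p = 0.617). Mrpl44, a protein with a ribonuclease-like fold near the exit of the peptide tunnel, gave 0.29 ± 0.14 and 0.32 ± 0.14, and Mrps30, which despite its name sits in the large subunit, 0.15 ± 0.17 and 0.41 ± 0.17. Neither passed in either comparison (edgeR adjusted p from 0.0715 to 0.528).

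The 3 genes Mrps18a, Mrps18b and Mrps18c are homologs of 1 bacterial protein and occupy different places, the first in the large subunit and the others in the small one. Mrps18a had 24.5, 25.3 and 23.7 CPM in WT, 26.2, 24.9 and 33.0 in dHep, and 29.5, 35.6 and 36.1 in KO. Mrps18b had 28.6, 27.7 and 28.4 in WT, 29.0, 23.4 and 28.7 in dHep, and 34.6, 37.5 and 34.0 in KO. In both genes the KO libraries were above WT, and the dHep libraries overlapped WT. Mrps18a rose by 0.46 ± 0.13 in KO (edgeR adjusted p = 0.0207) and Mrps18b by 0.33 ± 0.11 (edgeR adjusted p = 0.0388), with -0.06 ± 0.11 for Mrps18b in dHep. The calls were lost under 7 and 10 of the 19 alternatives, in both genes without any 1 of the WT libraries, KO 2 or KO 3, and in Mrps18b also without KO 1. Mrps18c had 24.2, 27.2 and 27.9 CPM in WT, 31.7, 27.2 and 40.8 in dHep, and 28.5, 34.8 and 34.2 in KO. It did not pass in dHep (0.33 ± 0.16) or KO (0.30 ± 0.16; edgeR adjusted p = 0.155 and 0.151).

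Mrps36 was the member that differed between the libraries labelled KO and dHep. It had 5.0, 5.15 and 4.31 CPM in WT, 5.07, 4.26 and 4.61 in dHep, and 7.61, 8.64 and 8.54 in KO. The KO libraries stood above all others, and dHep lay within WT or just below it. The log2 fold change was 0.78 ± 0.14 for KO against WT (edgeR adjusted p = 0.0025), 0.83 ± 0.14 for KO against dHep (edgeR adjusted p = 0.0099) and -0.05 ± 0.14 for dHep against WT (edgeR adjusted p = 0.819). The difference from dHep did not pass when these 2 groups alone were fitted or without WT 1 and dHep 2, and that from WT did not when a trend with gene length was removed. Mrps36 lies at chr13:100735940-100744659 in mm10, 5.22 Mb from F2rl1 (chr13:95511730-95525240). Mrps27, 3.83 Mb from F2rl1, rose by 0.36 ± 0.10 in both comparisons (edgeR adjusted p = 0.0329 in dHep and 0.0194 in KO), with calls lost under 8 and 6 of 19 alternatives, among them leaving out each WT library, dHep 3 in dHep and KO 1 in KO. The other members of chromosome 13, Mrps30, Mrpl36 and Mrpl32, lie at 22.9, -22.2 and -80.9 Mb from the same point.

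By origin, 23 of 46 members with a bacterial homolog rose in dHep and 34 in KO, with medians of 0.42 and 0.59. Of 29 members classed as specific to mitochondria, 11 and 17 rose, with medians of 0.35 and 0.41. That class includes Mrps18a and Mrps18b, which are related to the bacterial protein but sit at other places in the ribosome. Compared per length, as CPM per kilobase of exon, levels were spread from 2.18 to 79.7 (mean of 9 libraries), with a median of 21.5. Over all 9 libraries Mrpl12 was the highest at 79.7 CPM per kb (59.1 in WT, 87.6 in dHep and 92.3 in KO), before Mrps21 at 74.6 and Mrpl30 at 74.5, and the ranges of the 3 genes over the libraries overlap. The order differed by group: Mrpl42 was first in WT at 65.1 CPM per kb, before Mrps21, Mrpl30 and Mrpl12, and Mrpl33 was second in KO at 89.3. Mrpl17, Mrpl19 and Mrps25 were the lowest at 5.6, 2.91 and 2.18 CPM per kb. These 3 have long annotated exons, and Mrpl17 with 6712 bases is the longest member. Of these 6, Mrpl12 rose in both comparisons, Mrpl17 rose in KO (0.60 ± 0.12, edgeR adjusted p = 0.0038), and Mrpl30 (0.48 ± 0.14, edgeR adjusted p = 0.0224) and Mrpl19 (0.33 ± 0.12, edgeR adjusted p = 0.0452) passed in KO with calls lost under 7 and 9 alternatives, among them leaving out any 1 of the WT libraries, KO 2 or KO 3. Mrps21 and Mrps25 did not pass. Between livers of 1 group, the median coefficient of variation of the 76 genes was 4.25% in WT, 15.5% in dHep and 9.43% in KO, against 7.47%, 19.6% and 11.5% over all tested genes.

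Members are short genes, and among all tested genes short ones rose more often than long ones in both comparisons. The median length in exons was 1053 bases for members and 2854 for tested genes, and 42.1% of members but 6.99% of tested genes had at most 1000 bases. In dHep, 16 of 32 members of at most 1000 bases rose (50%), against 34.9% of 887 other genes of that length. Of 33 members of over 1000 and up to 2000 bases 45.5% rose, against 18.4% of 2945 others, and of 11 longer ones 27.3%, against 8.00% of 9233. In KO the shares were 78.1% against 48.3% for the shortest, 66.7% against 32.6%, and 45.5% against 14.2% for the longest. Across genes, Spearman's rho between log2 fold change and length was -0.36 in dHep and -0.43 in KO over the 76 members, and -0.28 and -0.32 over all 13141 tested genes, which share libraries and are not independent replicates.

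**Figure D3:**
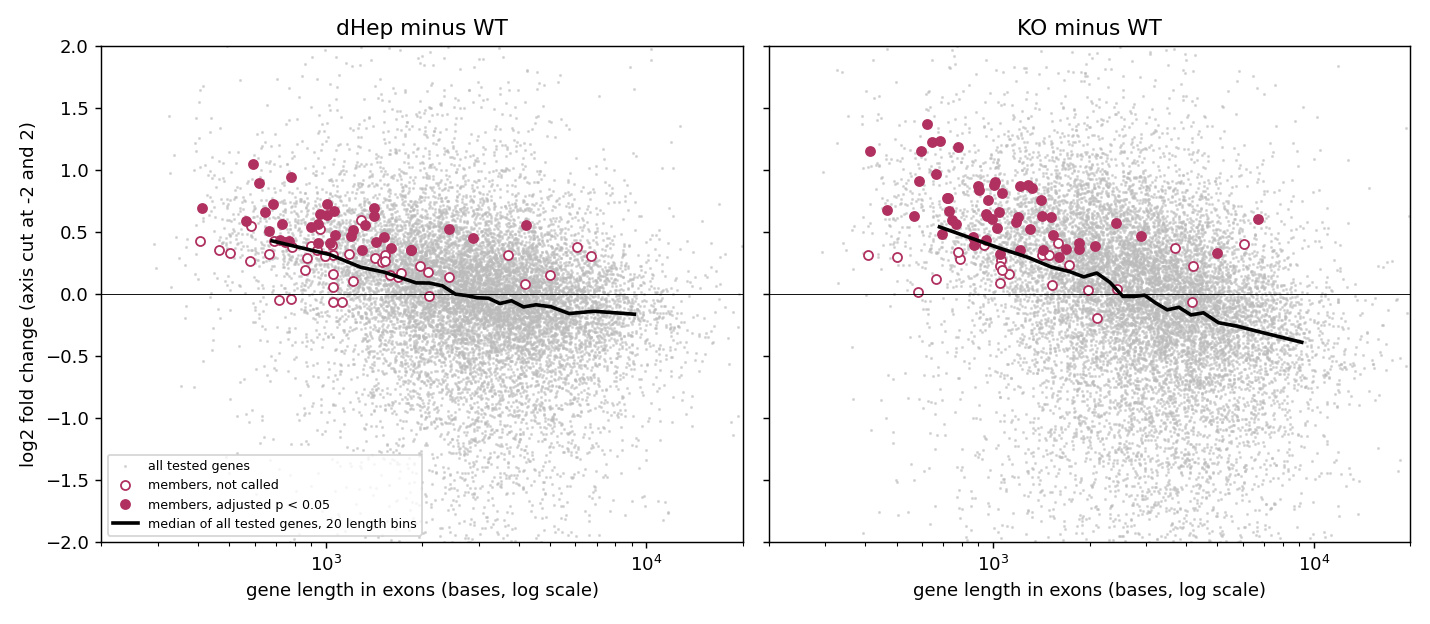
Log2 fold change against length in exons (log scale) for all tested genes (grey) and the 76 members, filled where edgeR's adjusted p was under 0.05; the line is the median of all tested genes in 20 bins of length. The line falls from above 0 in short genes to below 0 in long genes, and most members lie above it.

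**Figure D4:**
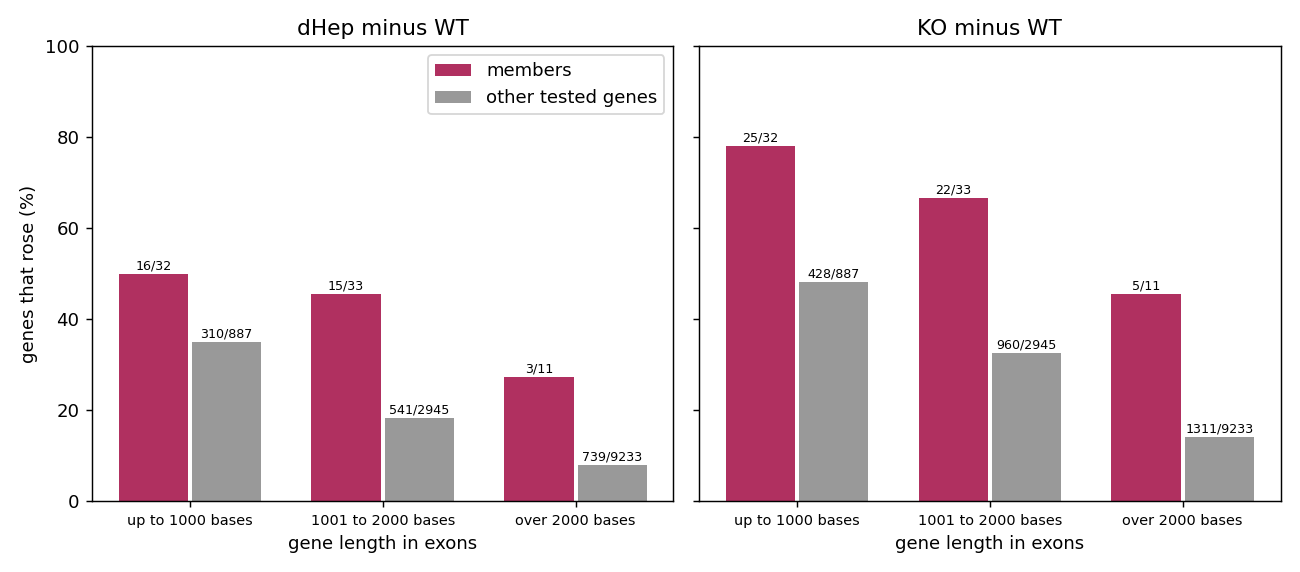
Percent of genes that rose in 3 bands of length, members beside all other tested genes, with the counts above the bars. In each band and in both comparisons the share of members is the higher one, and both shares drop with length.

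When a smooth of each library's deviation against length was taken out, which was added once results were known, 15 members rose and 2 fell in dHep, and 30 rose and 6 fell in KO. Of all 13141 tested genes, 1489 (11.3%) then rose and 1570 fell in dHep, and 2564 (19.5%) rose and 2665 fell in KO. The medians of the members became 0.13 and 0.22, and rho with length over the members turned to 0.39 and 0.18. With library totals in place of TMM, 9 members rose in dHep and 31 in KO and 0 fell, with medians of 0.21 and 0.29 where the medians of all genes were -0.14 and -0.20. Library totals gave 778 rises (5.92%) and 2029 falls among all tested genes in dHep, and 1526 rises (11.6%) and 3763 falls in KO. With that scaling 27.7% of the genes called in dHep and 28.9% of those called in KO were higher, against 50.9% and 48.7% with TMM. What the relation to length comes from was not tested.

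Other genes of the mitochondrial translation system were read from lists. Of 7 further ribosome proteins with other symbols, 5 rose and 0 fell in each comparison, among them Ict1, a peptidyl-tRNA hydrolase built into the large subunit (0.64 ± 0.13 in dHep and 0.69 ± 0.13 in KO, edgeR adjusted p = 0.0081 and 0.0029), and Aurkaip1 of the small subunit (0.82 ± 0.18 and 0.79 ± 0.18, edgeR adjusted p = 0.0105 and 0.0066). With the length trend removed Ict1 gave 0.25 and 0.18 and neither call held, and the dHep call of Aurkaip1 ended without WT 3. Of 22 tested genes for assembly of the ribosome and modification of its rRNA, 5 rose in dHep and 11 in KO, and 0 fell. Rpusd3, a mitochondrial member of the pseudouridine synthase family, had 4.24, 3.56 and 3.99 CPM in WT, 8.00, 6.02 and 10.2 in dHep, and 12.2, 15.6 and 13 in KO, 3 groups without overlap (1.03 ± 0.20 and 1.79 ± 0.20, edgeR adjusted p = 0.0063 and 0.00033). Eral1, a chaperone of the small-subunit rRNA, rose by 0.53 ± 0.11 in both (edgeR adjusted p = 0.0095 and 0.0048). The dHep calls of Eral1 and of Oxa1l, below, ended with library totals alone.

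A list of translation factors, which also holds Oxa1l, gave 1 rise and 0 falls of 14 in dHep and 4 rises and 3 falls in KO. Of all tested genes 12.4% and 11.9%, then 20.9% and 22.1%, rose and fell. Oxa1l, which inserts newly made proteins into the inner membrane and is not itself a translation factor, was the 1 rise in dHep. It rose by 0.51 ± 0.09 in dHep and 0.82 ± 0.09 in KO (edgeR adjusted p = 0.0040 and 0.00025). Gfm2, a factor that splits the ribosome after termination, had 124, 124 and 120 CPM in WT, 110, 103 and 126 in dHep, and 65.0, 62.0 and 61.7 in KO. Its KO libraries lay far under the others (-0.96 ± 0.09, edgeR adjusted p = 0.00021), and in dHep it did not pass (-0.12 ± 0.09, edgeR adjusted p = 0.37). Guf1, an elongation factor of the same organelle, fell by 0.48 in KO (± 0.15, edgeR adjusted p = 0.0274), a call lost under 6 of 19 alternatives, among them leaving out WT 1, WT 2, KO 2 or KO 3. Of 19 genes for mitochondrial aminoacyl-tRNA synthetases and the amidotransferase that completes one tRNA, 1 rose and 1 fell in dHep, and 10 rose and 2 fell in KO, with Vars2 (0.62 ± 0.12, edgeR adjusted p = 0.0034) and Aars2 (0.71 ± 0.15, edgeR adjusted p = 0.0044) up and Iars2 (-0.44 ± 0.08, edgeR adjusted p = 0.0026) and Wars2 (-0.56 ± 0.16, edgeR adjusted p = 0.020) down. The call of Wars2 ended without any 1 of the WT libraries, KO 2 or KO 3.

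The mitochondrial RNA polymerase gene Polrmt, whose product makes the RNA of the organelle, had 7.44, 7.0 and 7.2 CPM in WT, 11.3, 10.0 and 12.8 in dHep, and 17.3, 17.9 and 16.6 in KO. The 3 groups did not overlap, with rises of 0.65 ± 0.12 and 1.26 ± 0.12 (edgeR adjusted p = 0.0051 and 0.0002). Of 8 tested genes for mitochondrial DNA and its transcription, 2 rose in dHep and 1 in KO, and 0 fell. Regulators of mitochondrial biogenesis were mixed, with 1 rise and 0 falls of 11 in dHep and 3 rises and 2 falls in KO, near the shares of all tested genes (12.4% and 11.9%, then 20.9% and 22.1%). Esrra, an orphan nuclear receptor, rose in both (0.58 ± 0.14 and 0.62 ± 0.14, edgeR adjusted p = 0.016 and 0.0067), where the dHep call ended without WT 2, WT 3 or the pair of WT 1 and dHep 2. Nrf1 rose in KO (0.42 ± 0.12, edgeR adjusted p = 0.0221), a call that ended without any 1 of the WT or KO libraries and with library totals alone. The coactivator gene Ppargc1a had 14.7, 13 and 13.5 CPM in WT, 15.6, 12.4 and 9.47 in dHep, and 7.89, 5.56 and 5.6 in KO, a fall in KO (-1.11 ± 0.20, edgeR adjusted p = 0.0026). Gabpa fell in KO as well (-0.51 ± 0.12, edgeR adjusted p = 0.0092), while Yy1 gave -0.17 ± 0.11, Tfam -0.15 ± 0.09 and Ppargc1b -0.32 ± 0.29 there, none of which passed (edgeR adjusted p from 0.186 to 0.392).

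Genes used as markers of mitochondrial content went both ways. Of 15, 5 rose and 1 fell in dHep, and 4 rose and 1 fell in KO, with medians of 0.14 and -0.06. Tomm40, the import channel of the outer membrane, rose by 0.92 ± 0.13 and 1.07 ± 0.13 (edgeR adjusted p = 0.0020 and 0.00050), and citrate synthase, Cs, fell in dHep (-0.56 ± 0.10, edgeR adjusted p = 0.0046). Of 74 nuclear genes for subunits of the respiratory chain and ATP synthase, 45 rose and 0 fell in dHep, and 46 rose and 2 fell in KO, with a median of 0.49 in both. Of 76 cytosolic ribosomal protein genes, 73 rose and 0 fell in dHep, and 73 rose and 1 fell in KO, with medians of 0.63 and 0.72. Rplp0, the gene that fell, had 179, 171 and 169 CPM in WT, 245, 283 and 284 in dHep, and 135, 150 and 131 in KO (-0.32 ± 0.10, edgeR adjusted p = 0.0254), a call that ended without WT 1, WT 2, WT 3, KO 1 or KO 3. Neither of these lists was counted with the length trend removed. Under that setting the KO calls of Rps23, Atp5g2 and Ndufb4 as higher ended, and those of Rps28, Rps29, Uqcrq and Ndufs7 held.

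**Figure D5:**
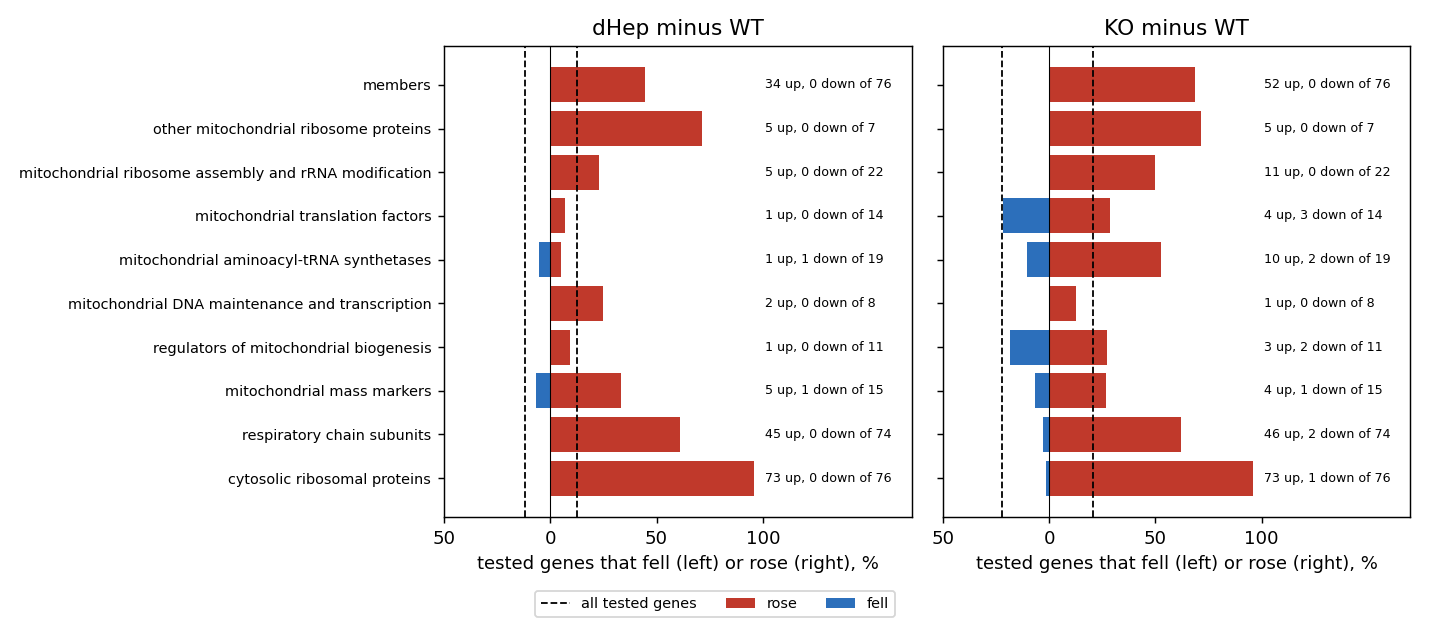
Percent of tested genes in each list that fell (left of 0) or rose (right of 0) in both comparisons with WT, with counts at the right and dashed lines at the shares of all tested genes. Cytosolic ribosomal proteins rose most often (73 of 76), and the members (34 and 52 of 76) lie beside the respiratory chain subunits (45 and 46 of 74). Gene length was not adjusted for.

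Markers of several other cell types also differed between the groups. The summed level of 8 macrophage markers came to 344 to 414 CPM in WT livers, 171 to 311 CPM in dHep livers and 74.1 to 139 CPM in KO livers, with 5 and 8 of 8 lower in the test. The sum of 8 stellate cell and fibroblast markers came to 571 to 640 CPM, 301 to 473 CPM and 256 to 337 CPM in the same order, and that of 7 endothelial markers 280 to 312, 180 to 254 and 134 to 186. Proliferation markers summed to 52.3 to 71.2 CPM, 22.9 to 34.9 CPM and 27.5 to 33.1 CPM. Cholangiocyte markers summed to 124 to 196 CPM, 44.1 to 56.7 CPM and 68.7 to 117 CPM. Of 5 tested, 0 rose and 1 fell in dHep, and 1 rose and 1 fell in KO. Their median log2 fold change was 0.26 in dHep and 1.09 in KO, so sum and median went opposite ways. The sums of 8 lymphocyte markers, at 6.48 to 7.59 CPM, 6.75 to 11.2 CPM and 6.52 to 7.19 CPM, overlapped between all groups. Gene by gene, 1 rose and 0 fell in dHep (median -0.01), and 1 rose and 3 fell in KO (median -0.76). Hepatocyte markers, 8 of them, summed to 94862 to 100560 CPM, 104906 to 154902 CPM and 103423 to 117458 CPM. In whole liver, fewer cells of a type and less RNA per cell cannot be told apart. The part of these levels in the rise of the members was not tested.

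Many members start next to another gene. In the table's own coordinates, 26 members (34.2%) had a gene on the opposite strand that starts within 1000 bases and points away, against 13.1% of tested genes. A single pair joined members to each other, Mrps11 and Mrpl46, whose start sites lie 42 bases apart around the stretch printed above. Mrps11 had 8.83, 7.56 and 9.55 CPM in WT, 10.8, 10.7 and 12.7 in dHep, and 13.1, 15.2 and 12.8 in KO, and Mrpl46 had 13.2, 15 and 14.9, then 20.3, 15.9 and 21.1, then 21, 22.2 and 19.1. Both genes were above WT in all 6 other libraries, by 0.40 ± 0.13 and 0.41 ± 0.13 in dHep (edgeR adjusted p = 0.0585 and 0.0488, the latter lost under 14 of 19 alternatives, among them leaving out each library but dHep 2) and by 0.66 ± 0.14 and 0.53 ± 0.13 in KO (edgeR adjusted p = 0.0043 and 0.0106).

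The other neighbours, 24 in number, are not members. Of 21 tested, 3 rose and 1 fell in dHep (median 0.14), and 7 rose and 1 fell in KO (median 0.35). Among all tested genes 12.4% rose and 11.9% fell in dHep, and 20.9% rose and 22.1% fell in KO. Sars2, a mitochondrial seryl-tRNA synthetase gene next to Mrps12, gave 0.71 in dHep (edgeR adjusted p = 0.0593) and rose by 0.98 in KO (edgeR adjusted p = 0.0104). Ndufb5, a respiratory chain gene next to Mrpl47, rose by 0.51 and 0.59 (edgeR adjusted p = 0.0144 and 0.0040), and Fau, a cytosolic ribosomal protein gene next to Mrpl49, by 1.21 and 1.37 (edgeR adjusted p = 0.0012 and 0.00035), where Mrpl49 gave 0.17 and 0.23 and did not pass. Peo1, the mitochondrial DNA helicase gene that shares the printed stretch with Mrpl43, gave 0.05 and -0.06 and did not pass (edgeR adjusted p = 0.743 and 0.601). Ncapd2, a condensin gene next to Mrpl51, fell by 0.70 in dHep and by 0.55 in KO (edgeR adjusted p = 0.0143 and 0.0222), while Mrpl51 rose by 0.46 and 0.62 (edgeR adjusted p = 0.0462 and 0.0079). In dHep, leaving out WT 2 or WT 3 ended the calls of Ncapd2, Ndufb5 and Mrpl51, WT 1 those of Ndufb5 and Mrpl51, and dHep 3, KO 2 or KO 3 that of Mrpl51, and in KO leaving out any WT library or KO 3 ended that of Ncapd2. Counting was by strand, so reads of the neighbours were kept apart.

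Of the 41 members with NRF1, GABPA or YY1 letters in their window, 19 rose in dHep and 30 in KO, with medians of 0.39 and 0.60. Of the 26 with none of these, 10 and 16 rose, with medians of 0.32 and 0.41. The difference between these sets was not tested.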

How the data were processed

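Stranded poly(A) RNA sequencing of 9 mouse livers was used, 3 per group. Per the submitters' processing notes, reads were checked with FastQC, aligned to mm10 with HISAT2 2.1.0 and compared with DESeq2, a step that was left out here. The deposited counts, raw and per gene, come from featureCounts 1.6.2 with strand setting 2, per the file headers. The same deposited table has a Length column in bases (a unit of other kind), used here for levels per kilobase and for length bands. All 23337 genes are named by symbol, and each of the 9 columns was matched to a sample by its name.

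Genes passing filterByExpr (minimum count 10, minimum total 15) were fitted together with the quasi-likelihood method in edgeR 4.0.16 under R 4.3.3, with TMM factors (0.883 to 1.10) and a mean per group, with Benjamini-Hochberg adjustment over all 13141 genes and a threshold of 0.05. The SE is the log2 fold change divided by the square root of F. CPM is reads per 1000000 in TMM-scaled libraries. Ranks of 3 against 3 cannot go under an exact two-sided permutation p of 0.1. The fit was tested on simulated data. Intervals between livers are the only error given, and reads carry no molecular identifiers.

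The members, the other lists and their classes were chosen with earlier results of these data known. Named members were, per comparison, the 8 called ones with the smallest p and no overlap of the groups, those with a particular role, and the 3 highest and 3 lowest per kilobase. From each other list up to 2 called genes per direction were named. F2rl1 and the regulators that the results turn on were added, and a subset of the names is printed. Mrpl1, Mrpl16, Mrpl33, Mrpl34, Mrpl42, Mrpl46, Mrpl49, Mrpl50, Mrpl51, Mrps11, Mrps27 and the neighbouring genes were chosen after their values were seen.

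Alternatives were median-of-ratios size factors, DESeq2 1.42.0, voom with sample weights of limma 3.58.1, fits of only the compared groups, no filter on low counts, a filter that asks for 1 CPM in 3 or more libraries, the replicate number as a block, leaving out WT 1 with dHep 2, and leaving out each library. Added after the data were seen were library totals without a factor and a length trend (lowess, span 0.5) as an offset. Promoter windows came from RefSeq, GRCm38.p6, and the printed runs were cut where they met an exon of a neighbouring gene. Symbols of 9 members had no window.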

Additional observations from a re-analysis of the deposited data

How the results depend on the processing

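The median log2 fold change of the members stayed above 0 in all 3 comparisons under each of the 19 alternatives. In dHep against WT, 34 members were called, 21 with only the 2 compared groups, 9 with library totals alone and 17 with the length trend removed, and 7 to 55 when a library was left out. The share of all tested genes that rose was 12.4%, then 9.00%, 5.92% and 11.3% in the same order. It ran from 4.55% to 15.5% over the left-out libraries. The 17 members called with the length trend removed were 15 that rose and 2 that fell, where 1489 of all tested genes rose and 1570 fell. The members' median of 0.38 became 0.21 with library totals and 0.13 with the length trend removed. It ran from 0.28 to 0.48 over the left-out libraries. In KO against WT, 52 were called, 31 with library totals alone, and 39 to 58 when a library was left out. Among all tested genes 20.9% rose, 11.6% with library totals, and 13.5% to 23.7% when a library was left out. The members' median of 0.48 became 0.29 with library totals and 0.22 with the length trend removed, and ran from 0.43 to 0.56 over the left-out libraries. In KO against dHep, 1 was called, 3 with DESeq2, 0 with only the 2 compared groups, 0 without WT 1 and dHep 2, and 4 with the length trend removed, and 1 to 18 when a library was left out, with a median of 0.03 to 0.25. The share of all tested genes that rose was 4.23%, then 6.81%, 1.21%, 1.75% and 5.17% in the same order. It ran from 1.30% to 9.78% over the left-out libraries. The 4 members called with the length trend removed were 2 that rose and 2 that fell, where 679 of all tested genes rose and 780 fell. With the length trend removed, 19 of the 74 members above 0 in KO against WT turned below it, and 11 of 71 in dHep against WT. Of those in KO, 4 had been called as risen, among them Mrps18b (to -0.038) and Mrpl30 (to -0.051), and 6 members, among them Mrps18c (to -0.36) and Mrps21 (to -0.42), now passed the test as lower. Of all 13141 tested genes, 2665 passed as lower in KO with that trend removed. Of the calls, 5 of 34 in dHep and 22 of 52 in KO held under all 19 alternatives. Fewer libraries or fewer groups leave fewer degrees of freedom, yet some counts rose when a library was left out. The cause of these shifts was not tested.

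With the replicate number as a block, 24, 48 and 1 members were called in the 3 comparisons, where 10.0%, 19.1% and 3.06% of all tested genes rose. The labels do not say whether livers with the same number are matched. The correlation of deviations from the group means was -0.19 to 0.04 in 9 pairs with the same number. It was -0.14 to 0.22 in 18 pairs with different numbers. With 3 livers per group these values cannot settle whether a cage or preparation was shared.

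A member had at least 94 reads in a library. How far depth and the spread between livers each limit the calls was not tested.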
